A study of Brachypodium distachyon with 9 samples.

Results

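The grass Brachypodium distachyon, a laboratory model for wheat and barley, carries GF14h, a 14-3-3 protein, and HDAC19, a histone deacetylase. Transcript abundance common to the loss of either was compared here by setting 6 mutant shoot libraries, as 1 group, against 3 wild type libraries. The members were the 9 count columns named in the sample labels, which are all 9 libraries of the series. The wild type was line 21-3, and both mutants were made by CRISPR/Cas9 editing in that background. The gf14h-1 mutant (3 libraries) and the hdac19-2b mutant (3 libraries) are each homozygous for a change in exon 1 that brings in an early stop codon, per the labels. Every plant, wild type included, grew for 18 days in a cycle of 14 h light at 20 °C and 10 h dark at 18 °C. All then went without water for 15 days, in a cycle of 16 h light and 8 h dark. Whole shoots at the 5 leaf stage were harvested 3 h after dawn, so there was no watered control. Each gene was represented by 1 mutant allele. The effect of losing these genes and that of anything else shared by both edited lines but not by wild type cannot be told apart. No source used here ties the targeted genes to an annotated locus, and their own transcripts were not analysed.

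The 14-3-3 proteins are adaptors that bind client proteins once these are phosphorylated, and in plants they take part in hormone signalling, flowering and stress responses. Histone deacetylases of the HDAC19 type remove acetyl groups from histone tails within repressor complexes and, in Arabidopsis, restrain stress, hormone and seed genes. C-repeat binding factors (CBFs) are AP2/ERF transcription factors that switch on cold and dehydration genes. CIPK kinases act with calcineurin B-like calcium sensors, which relay calcium signals raised by salt, drought and cold.

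Library totals were 12041696 to 36632994 counts in wild type and 3302835 to 17653802 in the mutants, the lowest being gf14h-1 replicate 3. A floor of 3 counts equalled 0.084 to 1.06 CPM (counts as a rate over the scaled library total, with scaling by trimmed mean of M values, TMM) in a single library. The chloroplast transcript rbcL, which encodes the large subunit of Rubisco and marks green tissue, stood at 4500 ± 1804 CPM in wild type (SD, n = 3) and 3735 ± 1249 CPM in the mutants (SD, n = 6). Chloroplast features held 0.873% to 1.61% of counts in wild type and 0.885% to 1.47% in the mutants. The replicates are biological per the series' design text, and a fall in a whole shoot can reflect fewer cells of a type or less RNA per cell, which cannot be told apart here.

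Both lines together had 91 features that differed from wild type, of 23898 tested (0.381%), where a feature is an annotated gene or a non-coding transcript. Of these, 22 were higher in the mutants (0.0921%) and 69 were lower (0.289%), so falls made up 75.8% of the changes. The threshold was a Benjamini-Hochberg adjusted p under 0.05 over all tested features, in a quasi-likelihood test of 6 against 3 libraries (edgeR), to which adjusted p below refer. In all 91, each of the 6 mutant libraries lay on the same side of every wild type library, a pattern shown by 876 tested features in all (3.67%), 369 of them above wild type (1.54%) and 507 below (2.12%). Of the 91, 90 were at least 2-fold, with a median log2 fold change of 2.86 among the higher and -1.99 among the lower. With 3 wild type libraries small changes could hardly pass, so these sizes partly reflect the threshold. Summed over the 69 lower features, abundance ran from 4953 to 8353 CPM in wild type and from 1711 to 2197 CPM in the mutants. Over the 22 higher features it ran from 180.1 to 195.2 CPM in wild type and from 660.6 to 975.5 CPM in the mutants. Since no called feature overlapped between the groups, the gap between these sums was fixed by the selection. Unadjusted p under 0.05 was reached by 1423 features (5.95%), against 1195 from chance. The count of 91 depended on single libraries. It was 16 without wild type replicate 1 (7 higher and 9 lower, or 56.2% falls) and 26 without wild type replicate 3, of which 15 and 25 were among the 91, but 99 without wild type replicate 2. It was 53 to 62 without 1 hdac19-2b library, 72 and 102 without gf14h-1 replicates 2 and 1, and 152 without gf14h-1 replicate 3.

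**Figure D1:**
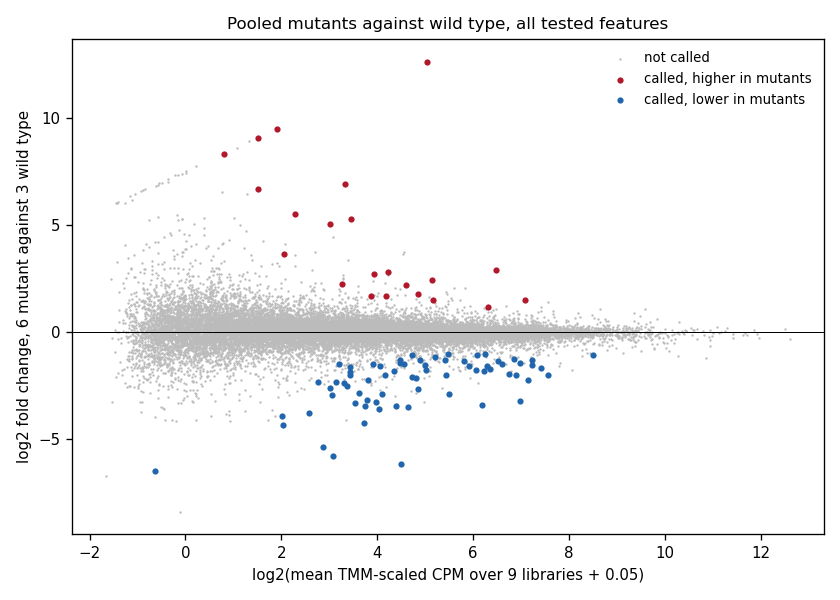
Log2 fold change of the 6 mutant against the 3 wild type libraries (vertical axis) against mean abundance as log2(CPM + 0.05) over the 9 libraries (horizontal axis), 1 point per tested feature, with the 22 called higher and the 69 called lower coloured. The called falls reach from low to high abundance and run down to a log2 fold change of -6.46, and the called rises run up to 12.62.

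Among features with a gene name or description, 2 of 162 tested passed in the pooled comparison (1.23%), CBF7 and LOC100828546. CBF7 (chromosome 4, 40903477 to 40904696) had 65.6, 12.2 and 22.9 CPM in wild type replicates 1, 2 and 3. In the 6 mutant libraries it had a lowest value of 1.21, a median of 2.81 and a highest of 6.03 CPM. The groups did not overlap, although the wild type plants themselves differed widely. Its pooled log2 fold change was -3.44 (SE 0.52), with an adjusted p of 0.0137 (edgeR). Without wild type replicate 1, the highest library, the adjusted p was 0.114 by that test.

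LOC100828546 (chromosome 4, 47804128 to 47807070) is described as a CBL-interacting protein kinase and carries the synonym CIPK14. It had 49.6, 41.4 and 38.5 CPM in wild type, and 82.1, 96.5 and 115.8 CPM as the lowest, median and highest of the mutants. Here the wild type libraries lay close together and every mutant library stood well above them. The log2 fold change was 1.18 (SE 0.18), with an adjusted p of 0.0146 (edgeR). The difference between the lines was -0.05 on the log2 scale (95% interval -0.50 to 0.39). Without any 1 of the wild type libraries its adjusted p rose to between 0.0756 and 0.131 by that test.

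CBF5, which lies 9834 bases from CBF7, had 5.79, 0.739 and 1.29 CPM in wild type and 0 counts in all 6 mutant libraries, at least 59.8-fold lower against 3 counts over the mutant group. It did not pass, with an adjusted p of 0.092 (edgeR). DESeq2's Wald test and limma-voom gave adjusted p of 2.77e-04 and 0.0419, but these methods made 364 and 302 calls in all, against 91. The remaining family member in the table, CBF4, was too low to be tested. MPK3, a MAP kinase of the cascades that relay stress signals, had 169.9, 48.6 and 83.3 CPM in wild type and a range of 21.3 to 66.0 CPM in the mutants. These ranges overlapped, and its log2 fold change of -1.44 (SE 0.39) had an adjusted p of 0.238 (edgeR).

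Of the signalling families that carry a name, no other had a member that passed. SnRK2 kinases, which relay abscisic acid and osmotic signals, had 9 tested members with log2 fold changes from -0.57 (SAPK2, LOC100823438) to 0.24 (SAPK6, LOC100831269) and a median of 0.12. The median over all tested features was 0.02. SAPK2 had 104.9 ± 20.7 CPM in wild type (SD, n = 3) and 70.9 ± 12.1 CPM in the mutants (SD, n = 6), and SAPK4 (LOC100828370) had 74.1 ± 13.8 and 52.3 ± 12.5 CPM. Their adjusted p were 0.479 and 0.777 (edgeR). The 5 features of protein phosphatases 2C and TRAB1, which act against and below those kinases, ran from -0.35 to 0.32 on the log2 scale. The 10 MAP kinase cascade genes had a median of -0.07, and MPK7-1, whose 6 mutant libraries all lay below wild type, had a log2 fold change of -0.48 and an adjusted p of 0.699 (edgeR). Besides LOC100828546, the calcium sensor and CIPK list held CBL2, CIPK2 and CIPK15, with log2 fold changes of -0.24, -0.22 and 0.03.

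The developmental and chloroplast lists held no call either. The 8 secondary wall NAC factors, master switches of fibre and vessel walls, had a median log2 fold change of 0.10, and the highest, SWN1 at 1.59, was near the limit of detection with 0.518 CPM in wild type. The 23 tested MADS-box features, which include floral organ regulators, had a median of -0.00, and LOC100840328, a MADS-box transcription factor 7-like gene, had -1.54 with an adjusted p of 0.729 (edgeR). The 2 polyubiquitin genes had 0.48 and 0.62. Among chloroplast genes, 29 of 38 photosynthesis features and 20 of 29 ribosomal, polymerase and maturase features had a negative value, against 11187 of all 23898 tested features. The chloroplast medians were -0.11 and -0.13, and none of these chloroplast features passed. The ribosomal protein gene rps3 had 0.376 CPM or less in every wild type and gf14h-1 library and 2.09 to 5.08 CPM in hdac19-2b, so its pooled log2 fold change of 3.39 (adjusted p 0.703 in edgeR) came from 1 line. LOC100834457, a sphingolipid desaturase DES1-like gene, had 40.0 ± 10.5 CPM in wild type (SD, n = 3) and 24.6 ± 7.92 CPM in the mutants (SD, n = 6), with an adjusted p of 0.70 by that test.

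The rises common to both lines included 10 features that were nearly or fully silent in wild type, with a wild type mean under 1 CPM, and 4 of these had 0 counts in all 3 wild type libraries. The most abundant was a transcript of the long non-coding RNA locus LOC112268938 (chromosome 1, 17317420 to 17318853). It had 0 CPM in each wild type library and 29.2, 44.2 and 78.0 CPM as the lowest, median and highest of the mutants, at least 969-fold higher against 3 counts over the wild type group. Its adjusted p was 3.91e-04 (edgeR). The other annotated transcript of this locus was not silent in wild type. Summed over both, the locus had 1.06, 0.327 and 0.65 CPM in wild type and 31.7 to 89.1 CPM in the mutants, a log2 fold change of 6.40 (SE 0.48). Counted per locus, this RNA was thus present at a trace in wild type.

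The other 3 features at 0 in wild type were a transcript of the long non-coding RNA locus LOC104581633 (chromosome 1), the pseudogene LOC112269290 (chromosome 5) and the protein-coding locus LOC100830402 (chromosome 2, 7096338 to 7097913). In the mutants LOC104581633 ran from 2.16 to 11.4 CPM, at least 93.5-fold higher. All 5 annotated transcripts of this locus were at 0 in wild type. LOC112269290 ran from 1.06 to 11.2 CPM, at least 136-fold higher, and LOC100830402 from 1.27 to 4.94 CPM, at least 42.4-fold higher. Their adjusted p (edgeR) were 0.0146, 0.0106 and 0.0240, and none held throughout. LOC104581633 and LOC112269290 lost the call without wild type replicate 1 or 3 (0.0556 to 0.0851 by that test). LOC100830402 lost it without any wild type library or hdac19-2b replicate 2 or 3 (0.0511 to 0.124 by that test).

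A few counts were seen in wild type for the rest of this silent group. The long non-coding RNA LOC100828439 (chromosome 1, 6799304 to 6800048) had 0.429, 0 and 0 CPM in wild type and 7.24 to 25.05 CPM in the mutants, and a pooled count ratio of 133 (95% counting interval 61.1 to 364). A transcript of the long non-coding RNA LOC104582587 (chromosome 2, 14351453 to 14353333) had 0.0714, 0 and 0.028 CPM in wild type and 2.31 to 5.46 CPM in the mutants, a ratio of 129 (interval 35.5 to 1071). Both stayed past the threshold whichever library was left out, with adjusted p of 0.00933 and 0.00498 over all libraries (edgeR). The coding locus LOC100845284 (chromosome 2, 52836581 to 52840919) had 0.429, 0 and 0.056 CPM in wild type and 3.06 to 12.2 CPM in the mutants, a ratio of 54.1 (interval 27.3 to 126). These intervals of count ratios cover counting error only, not the spread between plants.

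LOC100823178, a coding locus of chromosome 3 (37855665 to 37858947), had 0.50, 0.164 and 0.476 CPM in wild type. Its lowest, median and highest mutant values were 6.18, 14.3 and 32.8 CPM. The gf14h-1 libraries took the upper part of that range and the hdac19-2b libraries the lower. The log2 fold change was 5.28 (SE 0.70), with an adjusted p of 0.00926 (edgeR). The call of LOC100823178 was lost without wild type replicate 1 or 3 (0.0705 and 0.0548 by that test), and that of LOC100845284 without wild type replicate 2 or 3 or hdac19-2b replicate 2 (0.0503, 0.131 and 0.0538). The 2 remaining loci of the group were LOC104584778 and LOC100844910, with log2 fold changes of 5.05 and 3.67. They kept the call in 4 and 3 of the 9 fits without 1 library (highest adjusted p 0.194 and 0.221). Both lost it without replicate 1 or 3 of wild type, replicate 2 of gf14h-1, or replicate 1 or 2 of hdac19-2b, and LOC100844910 also without wild type replicate 2.

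**Figure D2:**
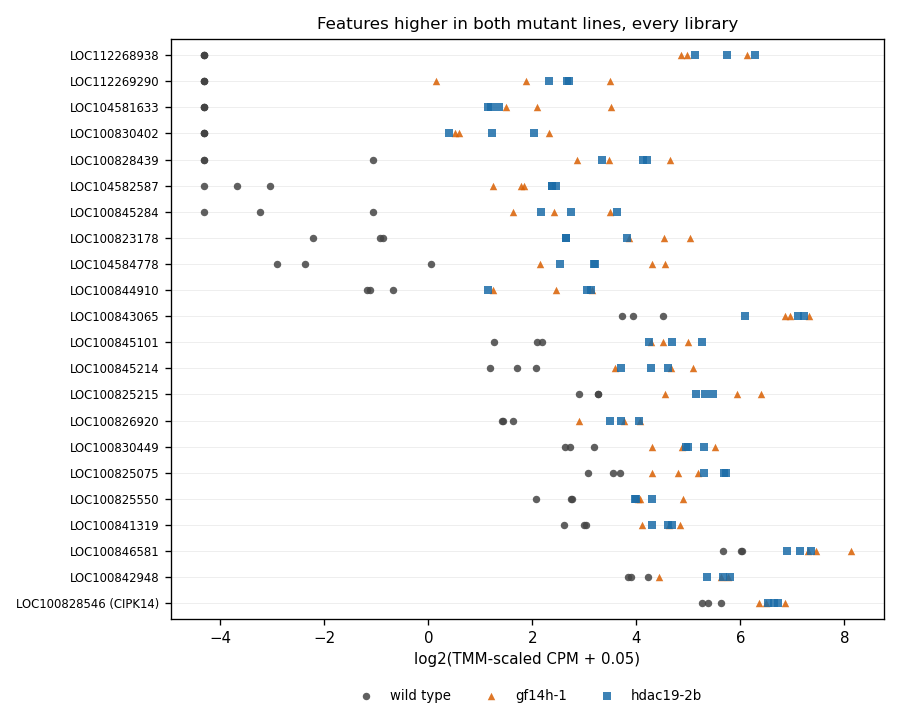
Abundance of the 22 features called higher, as log2(CPM + 0.05) on the horizontal axis, 1 row per feature and 1 point per library, with circles for wild type, triangles for gf14h-1 and squares for hdac19-2b. The circles of every row lie left of all other points, and in the upper 10 rows they lie near or at 0 CPM.

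The other 12 rises started from a wild type level of at least 1 CPM. LOC100843065, a coding locus of chromosome 3 (7228638 to 7230293), had 13.1, 22.7 and 15.2 CPM in wild type and 68.5, 131.5 and 159.7 CPM as the lowest, median and highest of the mutants. It was among the most abundant of the called rises, and even the lowest mutant library was over 3 times the highest wild type library. The log2 fold change was 2.89 (SE 0.31), and the adjusted p of 0.00272 (edgeR) stayed under 0.05 whichever library was left out. LOC100846581 (chromosome 1, 20224995 to 20229784) was of like abundance, at 50.6, 64.3 and 65.6 CPM in wild type and 118.7 to 281.4 CPM in the mutants, with a log2 fold change of 1.52 (SE 0.27). LOC100825215 (chromosome 3) went from 8.84 ± 1.23 CPM in wild type (SD, n = 3) to 48.1 ± 21.6 CPM in the mutants (SD, n = 6), and LOC100842948 (chromosome 2) from 15.9 ± 2.37 to 45.5 ± 12.9 CPM. Their adjusted p (edgeR) were 0.0334, 0.0146 and 0.0447. These 3 were less secure, keeping the call in 3, 6 and 1 of the 9 fits that left out 1 library (highest adjusted p 0.252, 0.114 and 0.292). All 3 lost it without any wild type library. LOC100846581 also lost it without replicate 2 or 3 of hdac19-2b or replicate 1 of gf14h-1, and LOC100842948 without any library but gf14h-1 replicate 3.

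One rise was a change of transcript within a locus, not of the locus. LOC100845101 is a protein-coding gene of chromosome 3 with a coding feature and 2 non-coding transcripts, one of which (18867561 to 18879815) rose from 2.36, 4.19 and 4.48 CPM in wild type to a range of 18.9 to 38.2 CPM in the mutants. Its log2 fold change was 2.83 (SE 0.33), with an adjusted p of 0.00476 (edgeR) that held whichever library was left out. Summed over all 3 features, the gene stood at 32.4 ± 9.68 CPM in wild type (SD, n = 3) and 32.6 ± 4.91 CPM in the mutants (SD, n = 6), a log2 fold change of 0.01 with an adjusted p of 1 by that test. The rising transcript took 10.6% (95% Wilson interval 7.66% to 14.5%), 10.1% (7.76% to 13%) and 13.4% (11.6% to 15.4%) of the gene's counts in wild type replicates 1 to 3. It took 82.9% (80% to 85.5%), 72.7% (68.6% to 76.5%) and 61.1% (50.8% to 70.5%) in gf14h-1. In hdac19-2b it took 99.5% (98.7% to 99.8%), 68.3% (63.1% to 73.1%) and 92.3% (89.4% to 94.4%). The share of the coding feature went from 73.1% to 85% of the gene's counts in wild type to between 0.451% and 38.9% in the mutants. In CPM, its own log2 fold change of -2.17 (SE 0.88) did not pass, with an adjusted p of 0.675 (edgeR). These intervals cover counting error only, and the split of reads between overlapping features is an estimate made by the authors' counting.

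**Figure D3:**
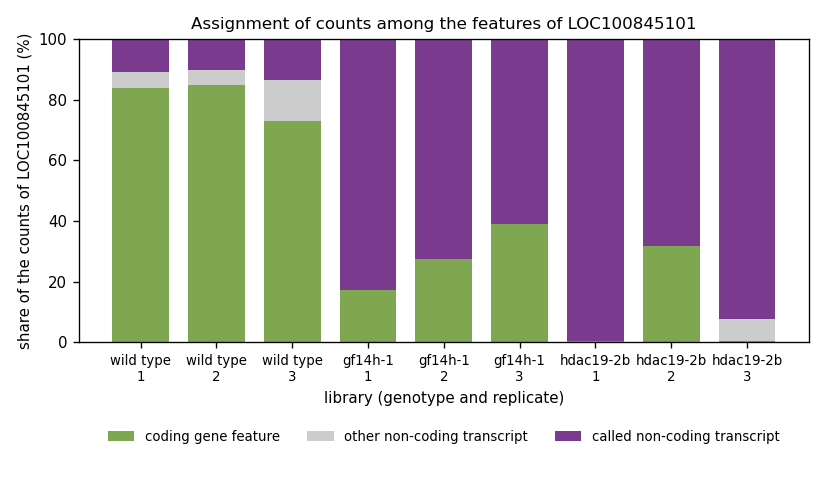
Share of the counts of LOC100845101 (vertical axis, %) assigned to its coding feature, its other non-coding transcript and the called non-coding transcript, 1 bar per library. The called transcript fills 10.1% to 13.4% of the 3 wild type bars and 61.1% to 99.5% of the 6 mutant bars.

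The same share was computed for 2278 features of 653 loci that have several features and at least 30 counts per library. In 25 features (1.10%) the 6 mutant shares all lay on the same side of wild type. A difference between the group medians of at least 50 percentage points was seen for 2 of these, both in LOC100845101. This scan was chosen after the values of that gene were seen. Assignment also bore on LOC100828033 (chromosome 4), called lower at the coding feature with 38.2 ± 4.63 CPM in wild type (SD, n = 3) and 14.0 ± 3.74 CPM in the mutants (SD, n = 6). Summed with its non-coding transcript, it had a log2 fold change of -0.97 and an adjusted p of 0.469 (edgeR).

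The falls covered a wide span of abundance, and 22 of the 69 lower features had a wild type mean over 100 CPM. LOC100840350, a coding locus of chromosome 4 (46817829 to 46821277), had the smallest p of all. It had 59.6, 17.5 and 29.9 CPM in wild type, and all 6 mutant libraries fell between 1.56 and 2.16 CPM. The mutants were thus far more alike in it than the wild type plants. The log2 fold change was -4.25 (SE 0.34), with an adjusted p of 3.91e-04 (edgeR).

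LOC100834335 (chromosome 3, 40359281 to 40360482) had 129.6, 20.8 and 44.3 CPM in wild type and 0.19 to 3.18 CPM in the mutants, and LOC100823053 (chromosome 2, 33398110 to 33399971) had 52.5, 8.78 and 12.0 CPM and 0 to 0.698 CPM. LOC100823161 (chromosome 2, 42143374 to 42145479) had 176.4, 57.5 and 83.3 CPM in wild type and 11.9 to 18.3 CPM in the mutants. In all 3, as in LOC100840350 and CBF7, replicate 1 was the highest and replicate 2 the lowest wild type library. Their log2 fold changes were -6.13 (SE 0.65), -5.77 (SE 0.62) and -2.88 (SE 0.30), each with an adjusted p of 0.00272 (edgeR). The calls of these 3 and of LOC100840350 held whichever library was left out. Limma-voom with sample weights did not call LOC100823053 (adjusted p 0.0693). LOC100823053 lies over the coding locus LOC100834312 on the other strand, which had a log2 fold change of -0.29, and whether counting used strand is not given in the sources used here.

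Of the 69 lower features, 17 fell 8-fold or more, and 5 of the 69 had a mutant mean under 1 CPM, LOC100823053 among them. LOC100843613 (chromosome 5, 27592933 to 27596133) had 1.71, 1.89 and 1.68 CPM in wild type, and 1 count in gf14h-1 replicate 2 was all that the mutants held. The pooled ratio was 141 (95% counting interval 24.8 to 5628, for counting error only). LOC100845084 (chromosome 3, 52449479 to 52450650) had 30.3, 10.5 and 21.6 CPM in wild type and at most 1.10 CPM in a mutant library. LOC100846470 (chromosome 1), LOC100844777 (chromosome 3) and LOC100826055 (chromosome 3) went from wild type means of 11.1 ± 6.04, 10.6 ± 6.68 and 15.5 ± 15.5 CPM (SD, n = 3) to 0.494 ± 0.531, 0.674 ± 0.322 and 1.07 ± 0.653 CPM (SD, n = 6). Adjusted p (edgeR) were 0.0204, 0.0143, 0.0320, 0.00805 and 0.0149 for these 5 in turn. All 5 lost the call without wild type replicate 1 (adjusted p 0.0954 to 0.277), and LOC100844777 lost it in no other such fit. LOC100845084 and LOC100846470 also lost it without wild type replicate 3, and LOC100826055 and LOC100846470 without hdac19-2b replicate 2 or 3. LOC100846470 lost it without hdac19-2b replicate 1 too, and LOC100843613 kept it only without replicate 1 or 3 of gf14h-1.

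The 5 lower features with the highest mean over the 9 libraries fell 2-fold to 4-fold. LOC100827967 (chromosome 2, 53607694 to 53614584) had 533.9, 558.5 and 567.3 CPM in wild type and 170.7, 271.9 and 311.5 CPM as the lowest, median and highest of the mutants. LOC100832721 (chromosome 5) had 498.6, 303.9 and 326.9 CPM in wild type and 54.4 to 144.3 CPM in the mutants. The wild type libraries were nearly equal in the first and spread in the second. LOC100837965 (chromosome 1), LOC100835732 (chromosome 3) and LOC100821711 (chromosome 2) had wild type means of 312.8 ± 113.0, 264.8 ± 45.7 and 250.4 ± 100.4 CPM (SD, n = 3) and mutant means of 98.9 ± 22.3, 92.2 ± 28.1 and 100.4 ± 14.6 CPM (SD, n = 6). Log2 fold changes were -1.06 (SE 0.20), -1.99 (SE 0.31), -1.66 (SE 0.25), -1.52 (SE 0.25) and -1.32 (SE 0.23) for the 5 in turn. Their adjusted p (edgeR) were 0.0487, 0.0146, 0.0137, 0.0204 and 0.0320, and all 5 lost the call without wild type replicate 1 or 3 (highest adjusted p 0.240, 0.114, 0.107, 0.111 and 0.234 over the fits without 1 library). LOC100827967 kept its call only without gf14h-1 replicate 3. LOC100832721 also lost it without hdac19-2b replicate 2, LOC100835732 without wild type replicate 2 or hdac19-2b replicate 1 or 3, and LOC100821711 without gf14h-1 replicate 2 or any hdac19-2b library. Larger falls from a high level also occurred. LOC100821159 (chromosome 5) had 496.9, 183.2 and 247.9 CPM in wild type and 12.0 to 53.8 CPM in the mutants, and LOC100843822 (chromosome 1) had 327.4, 114.7 and 110.5 CPM and 7.36 to 34.1 CPM. Their log2 fold changes were -3.19 (SE 0.44) and -3.40 (SE 0.48), each with an adjusted p of 0.0106 (edgeR) that was lost only without wild type replicate 1 (0.0765 and 0.0791).

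**Figure D4:**
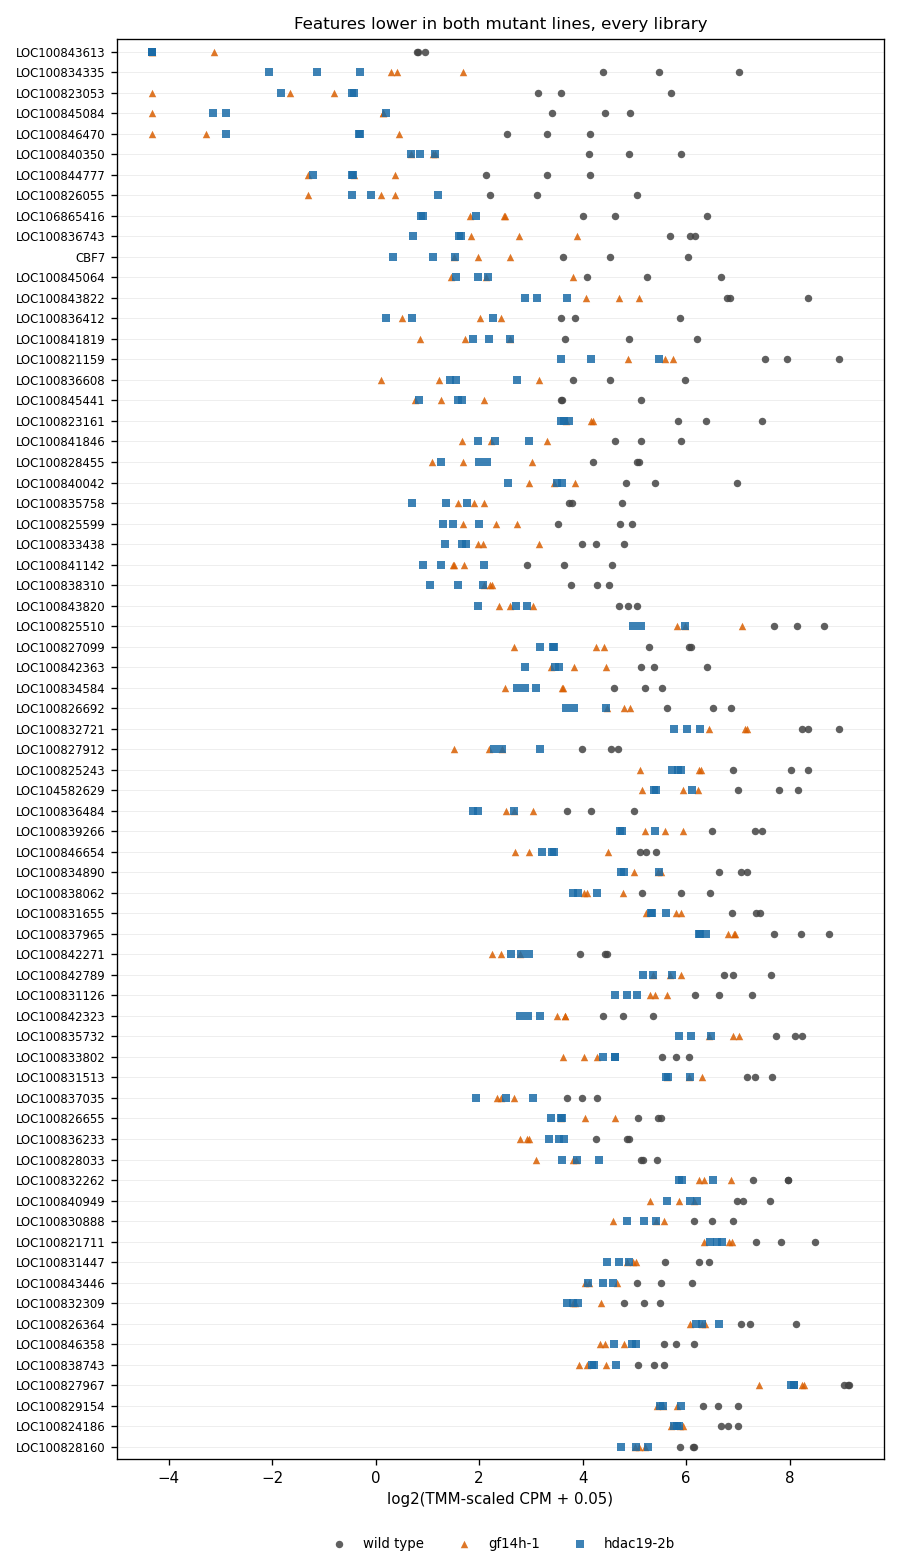
Abundance of the 69 features called lower, as log2(CPM + 0.05) on the horizontal axis, 1 row per feature and 1 point per library, with circles for wild type, triangles for gf14h-1 and squares for hdac19-2b. The circles of every row lie right of all other points, and in many rows they are spread more widely than in the rises.

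The falling features had a wider relative spread among wild type plants than tested features at large. The coefficient of variation over the 3 wild type libraries had a median of 0.342 among the 69 lower features, against 0.223 over all tested features. Over the 6 mutant libraries it was 0.30 against 0.349. Wild type replicate 1 was the highest wild type library in 50 of the 69 (72.5%), against 36.1% of all tested features, and in 44 the order was replicate 1, then 3, then 2. In 15 the highest wild type library was at least 3 times the lowest. What sets this order among wild type plants was not tested. The 69 were called on these same wild type values, so all tested features are no neutral background for the spread or the order. Without wild type replicate 1 the median log2 fold change of the 69 was -1.75, against -1.99 with it. Falls with a narrow wild type range were also present. LOC100843820 (chromosome 4, 41041219 to 41043487) had 26.1, 29.3 and 33.3 CPM in wild type and 3.88 to 8.19 CPM in the mutants, LOC100831655 (chromosome 3) had 173.2, 119.0 and 164.2 CPM and 37.6 to 59.4 CPM, and LOC100831513 (chromosome 1) had 161.7, 203.6 and 145.5 CPM and 48.6 to 79.0 CPM. With adjusted p of 0.00304, 0.00476 and 0.00926 (edgeR), these 3 held whichever library was left out. In all, 12 of the 91 calls held in each of the 9 fits without 1 library, 5 higher and 7 lower.

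The fold change of each line came from a fit with all 3 genotypes. The gf14h-1 and hdac19-2b values use the same wild type libraries. Their difference does not, and its absolute size had a median of 0.35 on the log2 scale and was under 1 in 84 of the 91 (92.3%). Over all tested features the median was 0.32 and 86.5% were under 1, so the lines were no closer in the called features than at large by the median. A difference between lines also works against a call in the pooled test, so the 91 are not an independent sample for this measure. Both lines were changed at least 2-fold in 87. No difference between the lines passed among the 91, against 4 among all tested features (0.0167%; smallest adjusted p among the 91 0.366 in edgeR), while 13 (14.3%) had an unadjusted p under 0.05, against 9.03% of all tested features. A difference that did not pass does not show that the lines act alike. Tested line by line in that fit, 35 of all tested features passed in gf14h-1 against wild type (0.146%) and 65 in hdac19-2b (0.272%). Of the 91 pooled calls, 26 passed in gf14h-1, 50 in hdac19-2b, 20 in both and 35 in neither. Those 35, 5 higher and 30 lower, passed with the 6 mutant libraries as 1 group and in neither line by itself. The 91 were called on these same libraries, so a higher share passing in each line than among all tested features is built in. The mean of both lines against wild type in that fit gave 105 calls (0.439%), 85 of them among the 91.

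The 3 called features whose lines differed least were LOC100846470, LOC100824186 and LOC100830402. LOC100824186 (chromosome 2, 13429649 to 13434752) had 127.8, 112.7 and 102.8 CPM in wild type. The gf14h-1 libraries had 52.5, 59.2 and 61.7 CPM and those of hdac19-2b had 57.9, 54.7 and 56.7 CPM. Both lines fell to the same level within the spread of their libraries. The difference between them was 0.03 on the log2 scale (95% interval -0.36 to 0.43), and the pooled log2 fold change was -1.003 (SE 0.15), with an adjusted p of 0.0137 (edgeR). That p was 0.114 without wild type replicate 1 and 0.0575 without replicate 3. For LOC100846470, at a few counts per mutant library, the interval of the difference ran from -2.37 to 2.37 and shows little.

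The lines differed most in LOC100843613, LOC100834335 and LOC100836743. LOC100836743 (chromosome 2, 53126290 to 53127511) had 67.6, 51.5 and 72.2 CPM in wild type. The gf14h-1 libraries had 6.76, 14.9 and 3.53 CPM and those of hdac19-2b had 3.00, 1.60 and 3.11 CPM. It was low in both lines and lowest in hdac19-2b. The difference was 1.77 (95% interval 0.79 to 2.74), and its adjusted p of 0.366 (edgeR) did not pass. For LOC100834335 the difference was 1.83 (95% interval -0.04 to 3.70). In LOC100843613 it rested on a single count. For CBF7 it was 1.05 (95% interval -0.29 to 2.40), again with the lower mean in hdac19-2b. The call of LOC100836743 was lost without wild type replicate 1 or 3 (highest adjusted p 0.0791).

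**Figure D5:**
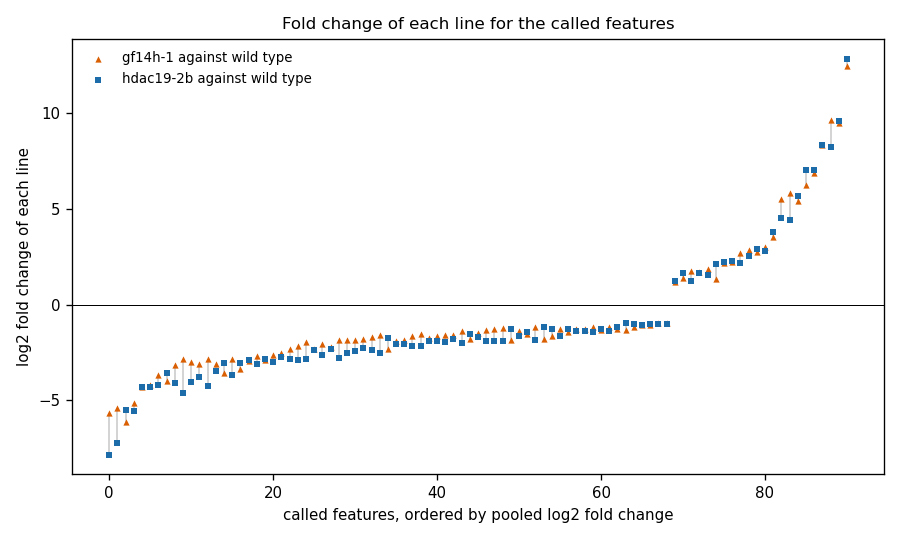
Log2 fold change of gf14h-1 (triangles) and of hdac19-2b (squares) against wild type for the 91 called features, ordered from the lowest to the highest pooled value, with a line joining the 2 values of a feature. Both values lie on the same side of 0 in every feature, which the lack of overlap between groups fixes, and in 84 features they are less than 1 log2 unit apart.

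By kind of feature, the calls were mostly protein-coding genes, 83 of 19755 tested (0.42%), 16 higher and 67 lower. Long non-coding RNA features had 5 calls of 2244 (0.223%), 4 higher and 1 lower. The lower one, LOC104582629 on chromosome 2, had 212 ± 79.2 CPM in wild type (SD, n = 3) and 54.4 ± 16.5 CPM in the mutants (SD, n = 6). Pseudogenes had 1 call in each direction of 458 (0.437%), and non-coding transcripts of coding genes had 1 of 1338 (0.0747%). No small nucleolar RNA (15 tested of 83) or microRNA precursor (10 tested of 41) passed, in libraries made from poly(A) RNA. The 15 small nucleolar RNA features summed to 10.1 to 18.3 CPM in wild type and 13.6 to 35.3 CPM in the mutants, so they were thinly sampled. Median log2 fold changes were 0.13 for long non-coding RNAs, 0.10 for pseudogenes, 0.11 for non-coding transcripts and 0.01 for coding genes, and the first is the same with features at 0 set at their bound.

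The calls were spread over the genome, with 20 of 6983 tested features on chromosome 1 (0.286%), 21 of 5411 on chromosome 2 (0.388%), 21 of 5354 on chromosome 3 (0.392%), 16 of 3792 on chromosome 4 (0.422%) and 13 of 2273 on chromosome 5 (0.572%). None was among the 81 tested chloroplast features. Within 100 kb of each other lay 5 pairs of called features, and both members were lower in each pair. How many such pairs chance placement would give was not tested, and 69 of the 91 calls were lower. LOC100826055 and LOC100826364 lay 3998 bases apart on chromosome 3, and LOC100844777 and LOC100845084 20553 bases apart on the same chromosome. LOC100836412 and LOC100837035 lay 14617 bases apart on chromosome 5, LOC100834890 and LOC100836743 34082 bases apart on chromosome 2, and LOC100843820 and LOC100846654 61012 bases apart on chromosome 4. LOC100826364, at 278.4, 151.7 and 133.2 CPM in wild type and 67.6 to 99.5 CPM in the mutants, fell less than its neighbour, with log2 fold changes of -1.23 and -3.76. Its call was lost whichever library was left out. LOC100836412 had -3.29 and kept its call in 3 of 9 such fits, and LOC100837035 had -1.50 and kept it in 2. LOC100834890 had -1.77 and kept it in 8, losing it without wild type replicate 1, and LOC100846654 had -1.82 and kept it in 2. Of the 178 distinct uncalled features that lay nearest to the 91 on either side, 27 (15.2%) had an unadjusted p under 0.05, against 5.59% of all uncalled features. These neighbours were set by calls made on the same libraries, and some lay close, such as LOC100837756 at 128 bases from LOC100838062. What underlies the higher share was not tested. Members of the called pairs were named after their values were seen.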

How the data were processed

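Libraries came from poly(A) RNA, per the labels. The authors deposited a table of expected counts for 28607 features, of which 69.1% to 83.2% of values per library were whole to within 0.001, and the rest were rounded here. The authors also deposited a median ratio normalized signal table, and 99.93% to 100% of its values became whole reads, to within 0.1, when multiplied by 1 factor per library. It lacks 153 features. HISAT2, Partek, DESeq2 and FastQC 0.11.9 are listed in the submitters' processing notes. The sources used here give no settings and no word on strand in counting.

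Counts were fitted with edgeR 4.0.16 in R 4.3.3 (TMM, default expression filter, which kept 23898 features with 99.9% of counts), with 1 term, mutant or wild type, and Benjamini-Hochberg adjustment. Printed SEs are approximate and derive from the F statistic. Values per line, and intervals of the difference between lines from the fit's Wald SE, came from a fit of 3 genotypes. Folds against 0 counts used a floor of 3 counts over the group. Alternatives used DESeq2 1.42.0 and limma 3.58.1, other scaling, filter, counts and designs, and leaving out libraries. The procedure was tested on simulated data, with 4-fold and 8-fold changes in features well above 0 counts and no difference between the lines. That test does not bear on features near 0 counts or on lines that differ.

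Names came from the deposited annotation and the RefSeq table of Brachypodium_distachyon_v3.0, where 28606 features matched and 211 have a name or description. Coordinates are 1-based on that assembly; those of single transcripts come from the deposited table. The text names, among calls without overlap, the 8 largest changes and 5 most abundant features each way, all annotated calls, the 8 annotated features nearest to a call, and the 3 calls with the smallest and largest difference between lines. Features named beyond this rule were chosen after their values were seen: LOC100823161, LOC100843820, LOC100831655, LOC100831513, LOC100845101, LOC100828033, the members of called pairs, single calls of a feature type, LOC100821159, LOC100843822, the remaining silent rises and list members. Members and lists were chosen with earlier results of these data known.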

Additional observations from a re-analysis of the deposited data

Results flagged for a closer look

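In 7 of the 48 named features, 1 of the 6 mutant libraries stood apart from the other mutants. Its gap to the nearest was past the critical share of the whole range in Dixon's test. The nominal chance rate of 5% assumes normal values from 1 population. These were untransformed CPM of 2 mutant lines, so 7 of 48 was not read as an excess. In gf14h-1 replicate 3, the shallowest library, LOC100834335 had 3.18 CPM (next highest mutant 1.29), LOC100846654 had 22.6 CPM (next 10.9), LOC100827967 had 171 CPM (next lowest 263) and MPK7-1 had 13.1 CPM (next 18.4). In gf14h-1 replicate 2, LOC100846581 had 281 CPM (next 176) and LOC100843613 had 0.0656 CPM, a single count where the other mutants had 0. In gf14h-1 replicate 1, the LOC104581633 transcript had 11.4 CPM (next 4.23). All 7 values belonged to the 3 gf14h-1 libraries. None of these values lay in the wild type range, which the lack of overlap between groups in these 7 features fixes.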

How the results depend on the processing

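Against 91 calls in edgeR (22 higher, 69 lower, 91 without overlap), the DESeq2 Wald test made 364 (140, 224 and 303), limma-voom with sample weights 302 (61, 241 and 240), and edgeR without gf14h-1 replicates 1 and 3, the libraries with the fewest features counted (24218 and 23016), 155 (38, 117 and 155). All 91 were among the DESeq2 calls and 86 among those of limma-voom. The calls that limma-voom lost were LOC100823053, LOC100823178, LOC100826055, LOC100845284 and LOC100844910. Falls were 61.5% of the DESeq2 calls and 56.2% without wild type replicate 1, against 75.8%. Fits that left out 1 library made 16 to 152 calls, 6 to 30 higher, 9 to 125 lower and 16 to 152 without overlap; the lowest counts came without wild type replicate 1 (lower) and replicate 3 (higher). DESeq2 size factors, no filter, recovered reads, counts per gene and the 3-genotype fit gave 90, 94, 94, 127 and 105 calls. Replicate numbers did not pair the samples (correlation of deviations -0.136 to 0.0204 over 9 same-numbered pairs, and 0 libraries correlated best with their own number). With the replicate block there were 56 calls, 41 lower and 56 without overlap. Over 48 named features no direction reversed in any of 18 settings, and the absence of overlap fixes much of that. Only 10 of the 91 calls held in every one of these settings. For LOC112268938, the rise is a log2 fold change of 6.40 per locus. With 3 wild type libraries and 1 of 3302835 counts, features under 1.06 CPM are poorly resolved in gf14h-1 replicate 3.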
